A study of Homo sapiens with 6 samples.

Results

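The genes encoding mitochondrial ribosomal proteins were taken by name, as every listed gene whose symbol is MRPL or MRPS followed by a digit. The rule found 78 genes among the 17646 listed, 49 named for the large subunit (MRPL) and 29 for the small subunit (MRPS). RNA was measured by sequencing in MDA-MB-231, an established human triple negative breast cancer cell line, after 48 h with a control siRNA (siControl, 3 libraries) or an siRNA against USP32 (siUSP32, 3 libraries). USP32 encodes a ubiquitin-specific protease, and no other allele, drug or time point entered the comparison. The labels do not state whether replicate libraries were grown as different cultures.

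Mitochondrial ribosomes translate the few messages encoded by mitochondrial DNA, all of which make subunits of the respiratory chain and the ATP synthase. Their RNA parts are made inside the organelle. Every one of their proteins is encoded in the nucleus, made on cytosolic ribosomes and imported, usually through a positively charged leader at the amino end. The large subunit carries the peptidyl transferase centre and the exit tunnel, and the small subunit binds the message and decodes it. The messages that these ribosomes translate are not analysed here.

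The promoters of these genes are known for short recognition sequences of ETS family factors such as GABP, of YY1 and of NRF1. Examples from 8 genes are written as the 120 bases that precede the annotated start in RefSeq (GRCh38.p14), 5′ to 3′ on the strand of the gene. They do not stand for all members. In a window from 250 bases before to 50 after the start, 43 of 70 members had any of these sequences. The share of all tested genes with any of them was not counted. The large risers MRPL4 and MRPL12 had none. Capitals mark CCGGAAG (ETS), AAGATGGCG (YY1) and the NRF1 sequence (GCGC and TGCGC with any base between them), on either strand, so that the reverse complements CTTCCGG and CGCCATCTT are also in capitals. MRPS34, the largest riser of the small subunit, has 3 ETS sequences, and MRPL52 has 2 YY1 sequences. MRPL20, the most abundant MRPL message, has 2 ETS sequences, MRPL36 has 1 NRF1 and 1 YY1 sequence, and MRPL54 has 1 ETS sequence. MRPL33 and MRPL50 were the members that fell, and MRPS10 did not pass the test. MRPL33 and MRPS10 have 1 ETS sequence each in the printed bases. MRPL50 and MRPS10 have a YY1 sequence after the start, outside the printed bases. An ETS sequence of MRPL52 runs past the last printed base and is not in capitals.
MRPS34, chr16:1773135-1773254, minus strand: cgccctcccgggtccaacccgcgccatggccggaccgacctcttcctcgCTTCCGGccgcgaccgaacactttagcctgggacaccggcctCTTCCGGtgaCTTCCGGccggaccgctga
MRPL54, chr19:3762562-3762681, plus strand: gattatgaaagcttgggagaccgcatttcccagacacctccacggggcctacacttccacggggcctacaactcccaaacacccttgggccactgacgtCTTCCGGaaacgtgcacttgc
MRPL52, chr14:22829767-22829886, plus strand: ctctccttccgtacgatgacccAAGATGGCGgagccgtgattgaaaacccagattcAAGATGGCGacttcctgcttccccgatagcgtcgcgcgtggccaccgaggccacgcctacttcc
MRPL20, chr1:1407294-1407413, minus strand: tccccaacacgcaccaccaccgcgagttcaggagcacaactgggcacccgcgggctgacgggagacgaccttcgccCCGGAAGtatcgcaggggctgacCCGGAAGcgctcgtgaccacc
MRPL36, chr5:1799838-1799957, minus strand: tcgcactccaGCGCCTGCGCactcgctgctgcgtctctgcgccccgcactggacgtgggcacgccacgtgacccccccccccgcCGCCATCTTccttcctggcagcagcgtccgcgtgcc
MRPL33, chr2:27771599-27771718, plus strand: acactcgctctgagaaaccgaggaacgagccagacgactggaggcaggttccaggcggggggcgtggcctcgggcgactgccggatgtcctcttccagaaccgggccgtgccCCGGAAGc
MRPL50, chr9:101398619-101398738, minus strand: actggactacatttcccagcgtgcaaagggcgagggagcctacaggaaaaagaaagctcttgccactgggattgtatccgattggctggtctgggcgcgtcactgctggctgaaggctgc
MRPS10, chr6:42217862-42217981, minus strand: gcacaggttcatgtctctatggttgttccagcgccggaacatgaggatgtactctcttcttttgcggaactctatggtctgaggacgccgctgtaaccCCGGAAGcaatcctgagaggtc

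Transfection with siUSP32 was accompanied by higher FPKM of most of these messages in both subunits. FPKM divides the fragments of a gene by its transcript length and by the mapped fragments of the library, so levels can be compared between genes. Fewer cells of a type and less RNA per cell cannot be told apart in such bulk libraries. Of the 49 MRPL genes 44 rose, 2 fell and 3 stayed short of the threshold, and of the 29 MRPS genes 26 rose, none fell and 3 did not pass. A gene was called at an adjusted p under 0.05 in limma, with all 12003 genes of a mean FPKM of at least 1 in the fit. All 78 members passed that filter, so none was left out for a low level. Over all tested genes 33.3% were called higher and 41.3% lower, 74.6% in either direction. The count of 70 members of 78 stands beside that background, and the comparison between the lists has no test of its own.

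The median log2 difference was 0.58 for MRPL and 0.52 for MRPS genes, against -0.06 over all tested genes. These differences are siUSP32 minus siControl on the scale of log2(FPKM + 1), which understates the change of low genes. Folds below are ratios of mean FPKM. Among the genes that rose, folds ran from 1.11 to 2.58 with a median of 1.54 in MRPL, and from 1.22 to 2.04 with a median of 1.48 in MRPS. A rise of at least 1.5-fold was measured for 25 MRPL and 13 MRPS genes, and one of at least 2-fold for 3 MRPL genes and 1 MRPS gene. On the log2 scale 4 members rose by at least 1, beside 236 of the 12003 tested genes. No member fell by as much as 1 on that scale, beside 1298 tested genes. The share of all tested genes that rose at least 1.5-fold was not counted. The quartiles of the MRPL differences lay at 0.41 and 0.76, and those of the MRPS differences at 0.39 and 0.69.

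**Figure D1:**
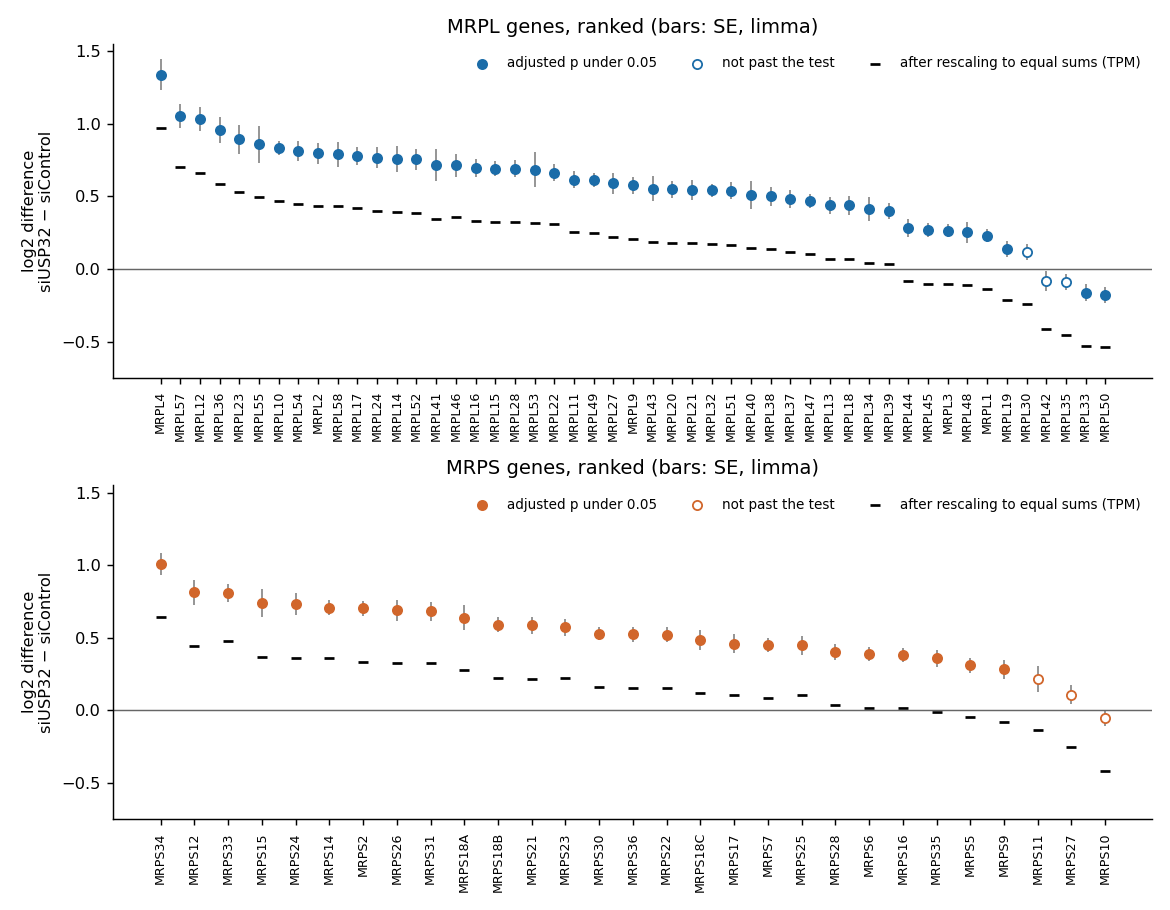
Log2 difference (siUSP32 minus siControl, vertical axis) of each MRPL gene (upper panel) and each MRPS gene (lower panel), ranked, with the standard error from limma as bars; open circles did not pass the test and black dashes are the values after rescaling every library to the same sum (TPM). MRPL4 leads at 1.34 and MRPS34 at 1.01, MRPL33 and MRPL50 lie at -0.16 and -0.18, and the dashes sit below the circles in both panels.

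The ranges of the libraries separated in most members. In 71 members all siUSP32 libraries lay above all siControl libraries, in 2 they lay below, and in 5 the groups overlapped. Over all tested genes the shares were 34.6% and 43.2%. An exact permutation test on 3 against 3 libraries cannot give a p below 0.1, so it cannot call any single gene. Among the siUSP32 libraries, library 2 held the highest of the 3 values in 61 of the 78 members, library 3 in 11 and library 1 in 6. Its total FPKM was also the highest, at 948641 against 873592 and 855573 in libraries 1 and 3. The same count was not made over all tested genes. As TPM, library 2 had a median log2 deviation from the siControl mean of 0.13 for MRPS, against 0.17 and 0.19 in libraries 1 and 3. For MRPL it was 0.22 against 0.21 and 0.18.

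Rescaling changes how many members are called, because the total FPKM differed between the groups. The FPKM of all listed genes summed to 689259 ± 4827 (SD, n = 3) in siControl and to 892602 ± 49360 (SD, n = 3) in siUSP32. When each library was rescaled to the same sum (TPM), 46 members were higher, 8 lower and 24 did not pass, beside 14.3% higher and 62.1% lower over all tested genes, whose median moved to -0.39. The MRPL median was then 0.21 with 30 of 49 genes higher and 6 lower, and the MRPS median 0.16 with 16 of 29 higher and 2 lower. Under FPKM, TPM, median-ratio scaling, quantile normalization and a correction for transcript length, 25 MRPL and 16 MRPS genes were called higher all 5 times, and no member was called lower all 5 times. The share of all tested genes called all 5 times was not counted. On the single scales 14.3% to 43.8% of all tested genes were called higher and 30% to 62.1% lower. Which scale comes nearest to RNA per cell cannot be told from these files.

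USP32 itself, the target of the siRNA, fell 3.96-fold. Its FPKM was 7.5, 7.48 and 8.32 in siControl and 2, 1.88 and 2.01 in siUSP32 (log2 difference -1.56 ± 0.07 SE, limma adjusted p = 8.57e-08). Markers listed for the breast cancer line, which cannot identify one line among others, included VIM at 1085 FPKM and KRT8 at 2935 in siControl and ESR1 at 0.50. KRT19 stood at 1239 FPKM in siControl, and EPCAM ranged from 3.89 to 12.09 over all libraries. ERBB2 was not absent, with a mean of 12.03 FPKM in siControl and 3.60 in siUSP32. The receptor status of the line was not tested. Several markers of the line moved with the siRNA, among them CD44 from 425 to 135, EGFR from 37.8 to 7.16 and VIM to 1658. Of 8 markers of other cell types, PTPRC, CD3E, CD79A, ALB and VWF were at or below 0.42 FPKM in every library. PECAM1 ranged from 0.39 to 1.10, ACTA2 from 0.55 to 1.86 and COL1A1 from 0.75 to 2.08.

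Summed messages of both subunits were higher in siUSP32. The MRPL genes summed to 3506, 3552 and 3535 FPKM in the siControl libraries and to 5166, 5876 and 5021 in the siUSP32 libraries, a ratio of 1.52. The MRPS genes summed to 1890, 1886 and 1898 FPKM in siControl and to 2724, 2949 and 2700 in siUSP32, a ratio of 1.48. In both subunits every siUSP32 library stood above every siControl library, and library 2 stood highest. As a share of all FPKM, the MRPL genes went from 0.512% to 0.599% and the MRPS genes from 0.274% to 0.313%.

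The balance between the subunits depended on how it was measured. The MRPL sum divided by the MRPS sum was 1.86, 1.88 and 1.86 in siControl and 1.9, 1.99 and 1.86 in siUSP32. Its means were 1.87 ± 0.0148 and 1.92 ± 0.0685 (SD, n = 3 each), and siUSP32 library 3 fell within the siControl range. The median FPKM of the MRPL genes divided by that of the MRPS genes was 1.10, 1.11 and 1.12 in siControl and 1.22, 1.34 and 1.27 in siUSP32, with no overlap. Both ratios are descriptions over chosen genes, and their differences were not tested. Names and structure differ for 3 genes: MRPS18A and MRPS30 proteins sit in the large subunit of the human particle, and the MRPS36 protein belongs to the alpha-ketoglutarate dehydrogenase complex. Sorted by structure, 46 of 51 large subunit genes and 23 of 26 small subunit genes rose, with medians of 0.58 and 0.50.

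**Figure D2:**
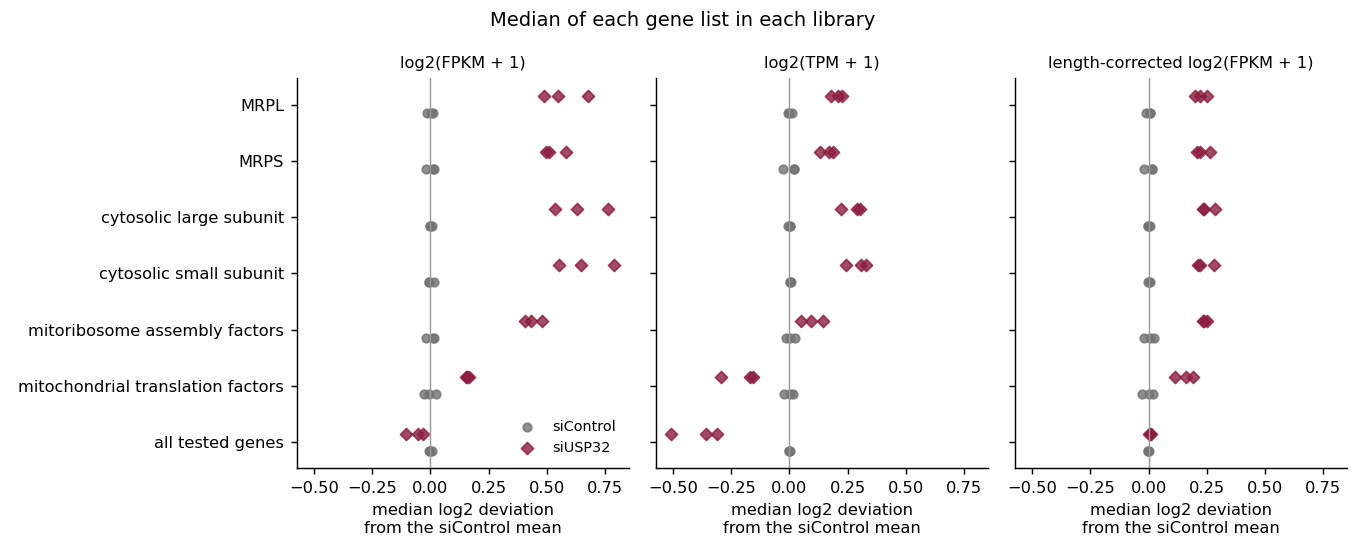
Median log2 deviation from the siControl mean (horizontal axes) of the genes of each list, one point per library, as FPKM, as TPM and after correction for transcript length. The siUSP32 points for MRPL are 0.55, 0.68 and 0.49 and those for MRPS 0.51, 0.58 and 0.50 in the left panel, and both lists move nearer to 0 in the other panels while staying above the siControl points.

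Among MRPL genes, MRPL4, a core protein of the large subunit with a bacterial counterpart, rose most. It lies on chr19:10251901-10260045 (plus strand, GENCODE 29 on GRCh38). Its FPKM was 57.7, 56.1 and 55.3 in siControl and 138, 174 and 124 in siUSP32. The lowest siUSP32 value was above every siControl value by more than the spread within either group. The 2.58-fold difference was 1.34 ± 0.10 (SE) on the log2 scale (limma adjusted p = 3.66e-06), and it was 0.97 as TPM and 1.01 after length correction.

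MRPL57, a protein found only in mitochondrial ribosomes, came next. Its FPKM was 20.6, 22.3 and 19.5 in siControl and 41.7, 50.1 and 41.3 in siUSP32, 2.14-fold higher (limma adjusted p = 4.02e-06). MRPL12 is the stalk protein that helps to recruit translation factors, and its gene lies on chr17:81703357-81707526 (plus strand). It read 90.8, 88.9 and 88.6 FPKM in siControl and 175, 213 and 167 in siUSP32, 2.07-fold higher (adjusted p = 4.83e-06). In both genes the groups were well separated, and siUSP32 library 2 was the highest.

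MRPL36, a small zinc-binding protein with a bacterial counterpart, was among the most abundant members. It stood at 164, 168 and 155 FPKM in siControl and at 289, 367 and 295 in siUSP32, a 1.96-fold rise (log2 difference 0.96 ± 0.09 SE, limma adjusted p = 1.09e-05). MRPL23 lies at the mouth of the exit tunnel and read 58.2, 57.4 and 58.4 in siControl against 101, 131 and 96.8 in siUSP32. That is a 1.89-fold rise with an adjusted p of 3.97e-05 in limma. Both genes had siControl values close together and siUSP32 values that spread more widely.

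**Figure D3:**
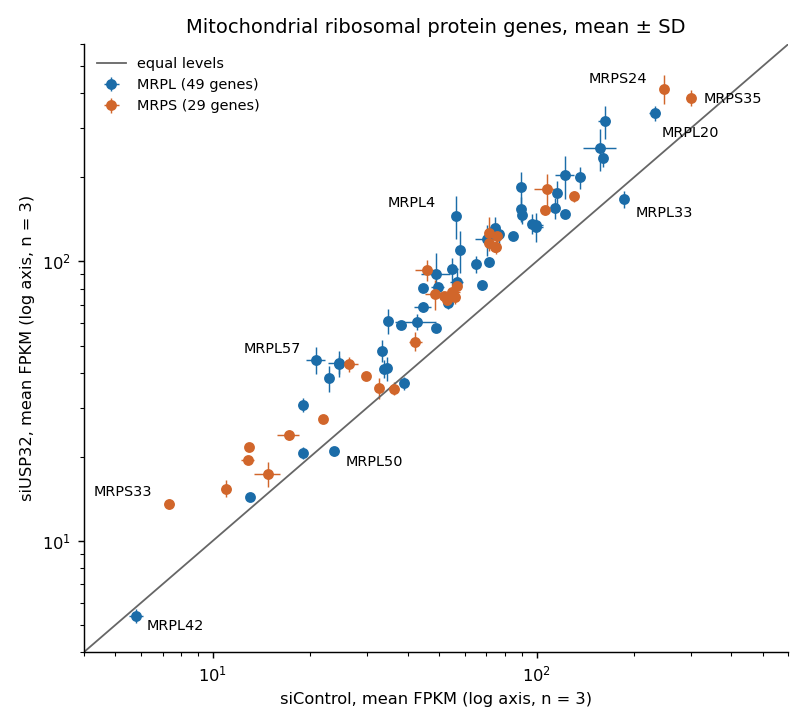
Mean FPKM of each member in siUSP32 (vertical, log axis) against siControl (horizontal, log axis), with SD over 3 libraries as bars, MRPL in blue and MRPS in orange. Most points lie above the line of equal levels, MRPL33, MRPL35, MRPL42, MRPL50 and MRPS10 lie below it, and MRPL4 lies farthest above it.

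Fixed places in the large subunit were also compared, as lists chosen by role. The 5 proteins of the stalk and its base (MRPL10, MRPL11, MRPL12, MRPL53 and MRPL54) all rose, by 1.54-fold to 2.07-fold, with a median difference of 0.82. The 6 proteins around the tunnel exit (MRPL17, MRPL22, MRPL23, MRPL24, MRPL45 and MRPL47) all rose, with a median of 0.72. The 8 proteins of the central protuberance, among them MRPL18, MRPL27 and the peptidyl-tRNA hydrolase MRPL58, all rose, with a median of 0.55. On the same FPKM scale 89.8% of all MRPL genes and 33.3% of all tested genes were called higher. After length correction the medians were 0.33, 0.30 and 0.19, and the counts called higher were 5 of 5, 5 of 6 and 4 of 8, beside 35% of all genes. As TPM, 4 of 6 tunnel exit genes and 4 of 8 central protuberance genes were called higher, beside 14.3% of all tested genes.

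Most genes rose whether or not the protein has a bacterial counterpart. Among large subunit genes 27 of 30 with a counterpart rose (median 0.60) and 17 of 19 without one rose (median 0.54). Among small subunit genes 14 of 16 with a counterpart rose (median 0.45) and 9 of 10 without one rose (median 0.58). Of all tested genes 33.3% rose, and no test was made between these lists.

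MRPL20 and MRPL53 were among the most abundant MRPL messages. MRPL20, which has a bacterial counterpart that binds the large subunit RNA and had the highest MRPL level, read 241, 228 and 226 FPKM in siControl and 331, 363 and 325 in siUSP32. The difference was 0.55 (limma adjusted p = 2.44e-05), yet 0.01 after length correction (adjusted p = 0.862). MRPL53 read 137, 162 and 174 in siControl and 234, 305 and 226 in siUSP32, a difference of 0.68 ± 0.12 SE (limma adjusted p = 7.45e-04). The groups did not overlap, and the gene was also called higher as TPM (0.32) and after length correction (0.25).

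MRPL33 and MRPL50 were the members that fell. MRPL33, a short protein with a bacterial counterpart, lies within chr2:27771717-27988087 (plus strand). It read 186, 187 and 187 FPKM in siControl and 163, 180 and 158 in siUSP32, which is 1.12-fold lower (log2 difference -0.16 ± 0.06 SE, limma adjusted p = 0.0267). The groups did not overlap, though siUSP32 library 2 lay close to the siControl values. As TPM the difference was -0.53 and after length correction -0.69. With median-ratio scaling it was -0.02 and was not called, and leaving out any siControl library or siUSP32 library 1 or 3 gave adjusted p from 0.0729 to 0.0947.

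MRPL50, a protein of mitochondrial ribosomes only, lies on chr9:101387633-101398614 (minus strand). Its FPKM was 23.4, 24.6 and 23.3 in siControl and 21.8, 20.2 and 20.7 in siUSP32. This 1.14-fold fall (log2 difference -0.18 ± 0.05 SE, limma adjusted p = 0.0148) was not called with median-ratio scaling, quantile normalization, length correction or without siControl library 2. MRPL33 has the shortest annotated transcript of the members and MRPL50 a long one, so length correction moved the pair in opposite directions.

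Of the MRPL genes near the threshold, MRPL19 was called in opposite directions on 2 scales. It read 13, 13.1 and 12.9 FPKM in siControl and 14.8, 14.0 and 14.4 in siUSP32, a rise of 0.14 (limma adjusted p = 0.0451). As TPM it fell by 0.21 (adjusted p = 0.0286), and the rise was lost with the replicate number as a block (adjusted p = 0.0892) and without any siControl library or siUSP32 library 1 or 3 (adjusted p from 0.0666 to 0.142).

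The 3 MRPL genes that did not pass were MRPL30, MRPL42 and MRPL35. MRPL30 read 18.8, 19.1 and 19.2 FPKM in siControl and 21.7, 19.7 and 20.7 in siUSP32 (log2 difference 0.11, limma adjusted p = 0.0887). MRPL42, the lowest of the MRPL messages, read 5.46, 5.89 and 6.02 in siControl and 5.70, 5.08 and 5.44 in siUSP32 (-0.08, limma adjusted p = 0.298). MRPL35 read 38.1, 40.5 and 38.4 in siControl and 34.7, 36.8 and 38.6 in siUSP32 (-0.09, limma adjusted p = 0.189). The groups of MRPL42 and MRPL35 overlapped, while those of MRPL30 did not. All 3 were called lower as TPM (-0.24, -0.41 and -0.45), and MRPL42 was called higher after length correction (0.52) and with quantile normalization (0.25). MRPL30 was called higher with median-ratio scaling (0.25), with quantile normalization (0.21) and without siUSP32 library 2 (adjusted p = 0.0109).

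MRPS34 rose most among the small subunit genes. It encodes a protein found only in mitochondrial ribosomes, which helps to stabilise the small subunit, and lies on chr16:1771890-1773155 (minus strand). Its FPKM was 43.2, 49.98 and 44.1 in siControl and 89.9, 102 and 87.5 in siUSP32. The groups lay far apart, with a 2.04-fold difference (log2 difference 1.01 ± 0.08 SE, limma adjusted p = 2.96e-06), which was 0.65 as TPM and 0.53 after length correction.

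MRPS12 and MRPS33 followed. MRPS12, at the decoding centre, read 69.6, 72.4 and 71.3 FPKM in siControl and 122, 146 and 112 in siUSP32 (1.78-fold, limma adjusted p = 2.69e-05). MRPS33, the lowest of the MRPS messages in siControl, read 7.62, 7.23 and 7.14 there and 13.5, 14.2 and 13.1 in siUSP32 (1.85-fold, limma adjusted p = 2.80e-06). MRPS33 has a long annotated transcript, and its difference of 0.81 became 1.05 after length correction.

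MRPS15 and MRPS24 completed the 5 largest MRPS rises. MRPS15, which binds the small subunit RNA, read 114, 96.9 and 113 FPKM in siControl and 170, 209 and 165 in siUSP32 (1.68-fold, limma adjusted p = 1.10e-04). MRPS24, a protein of the head of the small subunit, read 242, 253 and 251 in siControl and 394, 472 and 380 in siUSP32 (1.67-fold, limma adjusted p = 2.77e-05). Both sets of values were separated between groups. MRPS24 shares exons with a readthrough transcript of a neighbouring gene, URGCP-MRPS24, so its level is uncertain to that extent.

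The rises of MRPS35, MRPS6 and MRPS25 were lost on some scales. MRPS35, the highest of all members in siControl, read 299, 290 and 308 FPKM there and 393, 357 and 404 in siUSP32 (1.29-fold, limma adjusted p = 4.06e-04). As TPM its difference was -0.01. MRPS6 read 134, 130 and 128 in siControl and 171, 179 and 164 in siUSP32 (1.31-fold, limma adjusted p = 9.33e-05), with 0.02 as TPM and -0.10 after length correction, neither of them called. The low MRPS25 read 11.5, 10.8 and 10.7 in siControl and 15.2, 16.6 and 14.4 in siUSP32 (1.40-fold, limma adjusted p = 2.42e-04), with 0.10 as TPM, also not called.

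The MRPS genes that did not pass were MRPS11, MRPS27 and MRPS10. MRPS11 read 13.3, 15.97 and 15.1 FPKM in siControl and 15.3, 18.3 and 18.4 in siUSP32 (0.21, limma adjusted p = 0.0563), and was called higher after length correction (0.37), with a replicate block (adjusted p = 0.0132) and without siControl library 2 or siUSP32 library 1 (0.0444 and 0.0154). MRPS27, which carries RNA-binding repeats, read 32.2, 32.9 and 32.7 in siControl and 35.1, 32.4 and 38.5 in siUSP32 (0.11, limma adjusted p = 0.159). It was called higher with median-ratio scaling (0.24) and without siUSP32 library 2 (adjusted p = 0.01), and lower as TPM (-0.25). MRPS10 read 37.5, 36.4 and 35.2 in siControl and 36.6, 32.9 and 35.8 in siUSP32 (-0.05, limma adjusted p = 0.430), and was called lower as TPM (-0.42) and after length correction (-0.19). In each of them the groups overlapped.

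The MRPS18 family, chosen by role, holds 3 paralogs that share a fold and occupy different sites of the ribosome. MRPS18A went from 48.5 to 76.5 FPKM (1.57-fold), MRPS18B from 74.3 to 112 (1.51-fold) and MRPS18C from 55.0 to 77.6 (1.41-fold). All 3 rose, beside 89.7% of MRPS genes and 33.3% of all tested genes. MRPS18C was not called as TPM (0.12). MRPL46 and MRPS11 are neighbours that start 320 bases apart on opposite strands of chromosome 15, and were named after their values were seen. MRPL46 read 22.9, 22.2 and 23.6 FPKM in siControl and 39.2, 41.9 and 33.8 in siUSP32 (1.67-fold, limma adjusted p = 3.05e-05), while MRPS11 did not pass. The difference between the neighbours was not tested.

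Transcript length moved with the change across the whole library set. Annotated transcripts of MRPL and MRPS genes had median lengths of 1262 and 1547 bases, against 3049 over all tested genes with a length. Across genes, which are not independent replicates and here share the same 6 libraries, the log2 difference had a Pearson r of -0.448 with log2 length over all tested genes and -0.388 over the 78 members. Among genes with transcripts of 177 to 1762 bases, 57 of 58 members (98.3%) were called higher, beside 1631 of 2394 genes (68.1%). After a loess correction for length in each library, 52 members were higher, 3 lower and 23 not past, beside 35% and 35.2% of all genes, and both subunits had a median of 0.25. The share of length in the rise was not tested.

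**Figure D4:**
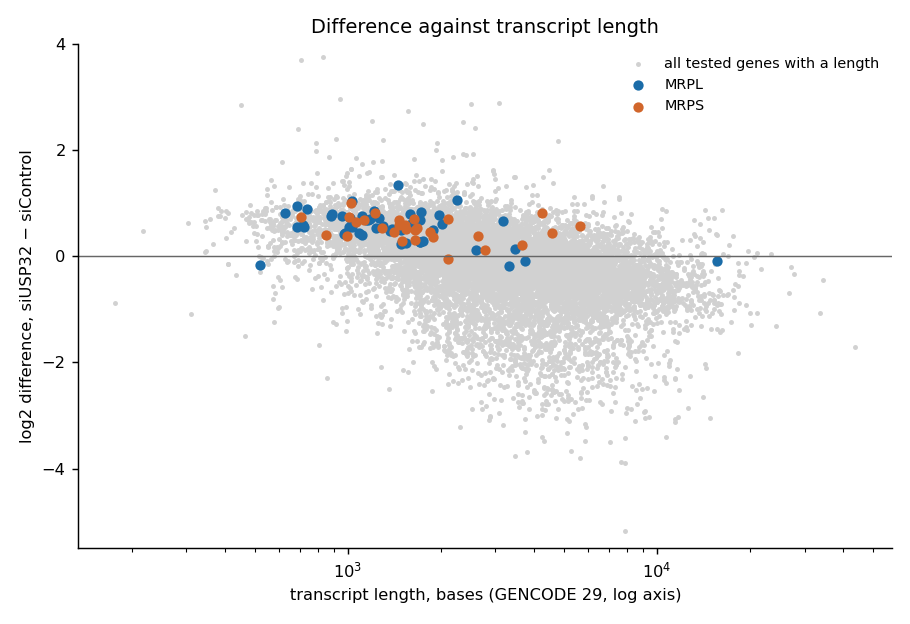
Log2 difference (siUSP32 minus siControl, vertical axis) against annotated transcript length (horizontal, log axis), with all tested genes in grey, MRPL in blue and MRPS in orange. The members lie mostly at the short end, with median lengths of 1262 (MRPL) and 1547 (MRPS) bases, where grey points also lie above 0 more often.

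The cytosolic ribosome is the nearest like group. All 79 of its measured protein genes rose, 47 of the large subunit (median 0.64) and 32 of the small subunit (median 0.66). The share over all tested genes was 33.3%. Examples from that list are RPL11 at 1.89-fold and RPSA at 1.69-fold. The differences of the cytosolic genes were more alike, with an SD of 0.13 across genes, against 0.32 for MRPL and 0.23 for MRPS. That contrast was not tested. Quantile normalization left 21 of 47 and 16 of 32 cytosolic genes higher, with 6 and 2 lower. It left 69 of 78 mitochondrial ones higher and 2 lower, beside 43.8% and 30% of all tested genes. The order was the other way as TPM, with 72 of 79 cytosolic genes higher and 0 lower, against 46 and 8 of the 78. After length correction 65 cytosolic genes were higher and 1 lower, against 52 and 3 of the 78. All tested genes had 14.3% higher and 62.1% lower as TPM, and 35% and 35.2% after length correction.

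Mitochondrial ribosome proteins whose names fall outside the rule rose in 4 of 5 cases, beside 33.3% of all tested genes. DAP3, a GTP-binding protein of the small subunit, went from 75.6 to 119 FPKM (0.65, limma adjusted p = 2.36e-06). GADD45GIP1, of the large subunit, went from 40.1 ± 1.37 to 81.7 ± 13.04 (SD, n = 3 each), a 2.04-fold rise (limma adjusted p = 1.66e-05). AURKAIP1 and CHCHD1 also rose, and PTCD3 went from 8.08 to 7.20 without passing (limma adjusted p = 0.125).

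The wider pathway, in lists written by function, split. Of 27 assembly factors 22 rose (81.5%) and 2 fell (7.4%), with a median of 0.42, beside 33.3% and 41.3% of all tested genes. NGRN, which supports the large subunit RNA, rose 1.68-fold and C1QBP, a matrix protein that binds RNA, 1.63-fold. FASTKD2 and METTL15, which act on the ribosomal RNAs, fell 1.44-fold and 1.46-fold. As TPM 9 assembly factors were higher (33.3%) and 5 lower (18.5%), beside 14.3% and 62.1% of all tested genes. After length correction 18 were higher (66.7%) and 3 lower (11.1%), beside 35% and 35.2% of all tested genes. METTL15 was not called with quantile normalization (-0.11).

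Of 17 translation factors 9 rose (52.9%), 1 fell (5.9%) and 7 did not pass, with a median of 0.16. Of all tested genes 33.3% rose and 41.3% fell. The elongation factor TUFM went from 210 to 367 FPKM (1.74-fold), the recycling factor MRRF rose 1.39-fold, and the elongation factor GFM1 fell 1.27-fold. Rescaled as TPM, 1 of the 17 was higher and 9 were lower (52.9%), beside 14.3% and 62.1% of all tested genes, and MRRF was not called (0.10). Among 23 genes of mitochondrial DNA and RNA machinery 12 rose (52.2%) and 2 fell (8.7%), beside the same 33.3% and 41.3%. HSD17B10, a subunit of mitochondrial RNase P, rose 1.68-fold, and TFB2M, a transcription initiation factor, rose 1.51-fold. The 2 that fell were FASTKD5, from 16.9 to 14.1 FPKM, and MTERF1, from 11.9 to 10.1, and the MTERF1 difference was 0.01 with quantile normalization. The FASTKD5 call was lost without siControl library 2 or 3 and the MTERF1 call without siControl library 1 or 3 or siUSP32 library 1.

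Mitochondrial aminoacyl-tRNA synthetases showed little common direction, with 7 of 17 higher (41.2%), 4 lower (23.5%) and a median of 0.04. All tested genes had 33.3% higher and 41.3% lower. CARS2 rose 1.43-fold and YARS2 1.37-fold, while IARS2 fell 1.42-fold and VARS2 1.47-fold. None of the 17 was higher as TPM, beside 14.3% of all tested genes, and 10 were lower (58.8%), near the 62.1% of all tested genes. CARS2 and YARS2 were not called as TPM, nor VARS2 with quantile normalization (-0.05). Of 7 tested regulators known to act on such genes, 3 rose (42.9%), 2 fell (28.6%) and 2 did not pass, beside 33.3% and 41.3% of all tested genes. MYC went from 4.53 ± 0.286 to 13.3 ± 0.883 FPKM (SD, n = 3 each), 2.93-fold higher (limma adjusted p = 2.80e-07). ESRRA rose 1.46-fold, GABPB1 went from 15.04 to 22.4 FPKM, and GABPA, which binds the ETS sequence, went from 15.1 to 10.95, a 1.38-fold fall that was not called after length correction. PPRC1 fell 1.27-fold, with 0.04 by quantile normalization and 0.06 after length correction. NRF1 and YY1 did not pass the test. After length correction 5 of the 7 regulators were higher and 0 lower, beside 35% and 35.2% of all tested genes. As TPM 2 were higher and 4 lower, beside 14.3% and 62.1%.

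**Figure D5:**
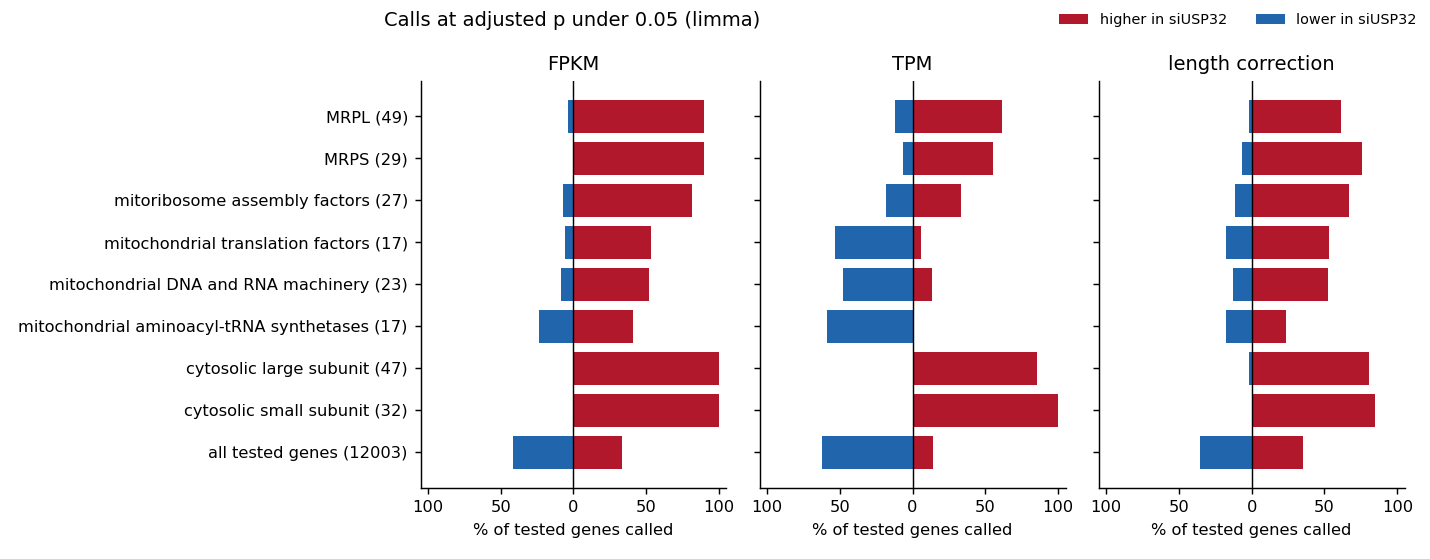
Share of tested genes called higher (red, right) or lower (blue, left) in siUSP32 by limma at an adjusted p under 0.05, in percent of each list (number of genes in brackets), as FPKM, as TPM and after length correction. The 2 mitochondrial ribosomal lists hold far more red than the row of all tested genes in each panel, and the synthetases have no red as TPM.

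The members share features that the name rule did not use. A stretch of 19 residues with a mean hydropathy of at least 1.6, as in membrane proteins, was found in 2 of the 78 encoded proteins (2.56%), MRPL32 and MRPS30, against 32.6% of all tested genes. Among cytosolic ribosomal proteins it was also rare, in 5 of 79 (6.33%). The residues that follow the first methionine, over 30 positions, carried a median net charge of 4 against 0 over all tested genes. A net charge of at least 3 was found in 62 of 78 members (79.5%) and in 24.7% of all tested genes, and also in 70.5% of cytosolic ribosomal proteins.

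RefSeq promoters (GRCh38.p14, 250 bases before to 50 after the start) were matched by Entrez identifier for 70 of the 78 members. CCGGAAG, the ETS sequence, stood on either strand in 29 of them (41.4%), 17 of 42 MRPL and 12 of 28 MRPS genes, against 19.9% of 9860 tested genes and 10.7% of all 27305 promoters. AAGATGGCG, the YY1 sequence, stood in 13 (18.6%) against 4.13% and 1.85%. The NRF1 sequence stood in 8 (11.4%) against 12.1% and 6.28%. The TATA box letters TATAAA stood in 3 (4.29%) against 5.58% of tested genes. None of these sequences contains another. The ETS sequence stood in 26 of 63 members that rose, 1 of 2 that fell and 2 of 5 that did not pass. The YY1 sequence stood in 10 of 63, 1 of 2 and 2 of 5, and the NRF1 sequence in 7 of 63, 0 of 2 and 1 of 5. A match is a string of letters and not a measured site.

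Shared sequence limits some values. Annotated pseudogene copies exist for 34 members, and 39 share exon sequence with another gene, 28 of them on the opposite strand and 14 on the same strand. How strand and multiply matching reads were treated is unknown here. The 20 members with neither a copy nor an overlap were all called higher as FPKM, beside 70 of all 78 members (89.7%) and 33.3% of all tested genes. The 2 members that fell and the 6 that did not pass each had a copy or an overlap, as did many that rose. MRPL33 shares exon sequence with BABAM2 on the same strand, and MRPL50 has 3 annotated pseudogene copies, so their falls are uncertain to that extent. Whether shared sequence altered the calls was not tested. MRPL49 overlaps FAU, a cytosolic ribosomal protein gene that went from 1054 to 1909 FPKM, and its own rise from 38.2 to 59.0 FPKM is uncertain to that extent.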

How the data were processed

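The authors deposited 1 table of FPKM per library, per the file headers, listing genes by Entrez identifier and symbol. Per the submitters' processing notes the build was GRCh38.p13. Aligner, counting tool, annotation, strand handling and treatment of multiply matching reads: not given in the sources used here. Read depth is unknown, so no counting interval could be given. A pseudocount of 1 was added before taking log2, and 12003 of 17646 genes whose mean reached 1 FPKM entered limma 3.58.1 in R 4.3.3 (mean-variance trend, no covariate, 2-sided) and Benjamini-Hochberg adjustment over all tested genes, called under 0.05. The fit was tested on simulated data. P-values measure the spread between libraries, which may be technical.

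The members and lists were chosen with earlier results of these data known. Named in each subunit were the called members with the 5 greatest increases and the 5 greatest decreases, the 3 highest and 2 lowest levels, members not called and those called in opposite directions on different scales, and in other lists at most 2 genes in each direction, by adjusted p. AURKAIP1, CHCHD1, PTCD3, NRF1, YY1, GABPB1, FAU, MRPL49, MRPL46 and the members of the stalk, tunnel exit, protuberance and MRPS18 lists were named outside that rule, by role or after their values were seen. Coordinates, lengths and protein features came from GENCODE 29 through Entrez identifiers, whose transcript lengths need not be those the authors used, and length was corrected with a loess curve (span 0.5) in each library. Alternatives were a pseudocount of 0.1, no filter, a minimum of 5, TPM, median-ratio and quantile scaling, no trend, length correction, subunits by structure, a block for the replicate number, and each library left out in turn.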

Additional observations from a re-analysis of the deposited data

How the results depend on the processing

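A pseudocount of 0.1, no filter, a minimum of 5 and no trend left every named member's call and each count of members within 1.5 times. The scalings mattered most. As TPM 46 members were higher and 8 lower (MRPL 6 lower, MRPS 16 higher and 2 lower), with median-ratio scaling none was lower (0 MRPL), and after length correction 1 MRPL and 2 MRPS genes were lower. The MRPL median was 0.21 as TPM, 0.71 with median-ratio scaling, 0.39 with quantile normalization and 0.25 after length correction, and the MRPS median 0.16, 0.66, 0.38 and 0.25. The ratio of sums was 1.17, 1.67 and 1.30 for MRPL and 1.14, 1.63 and 1.27 for MRPS as TPM, median-ratio and quantile values. The cause was not tested.

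Leaving out 1 library at a time gave 69 to 72 members higher and 0 to 2 lower (MRPL 43 to 45 and 0 to 2, MRPS 26 to 27 and 0), with no lower member without siControl library 2. Medians ran from 0.52 to 0.61 for MRPL and from 0.52 to 0.55 for MRPS, ratios of sums from 1.44 to 1.56 and from 1.43 to 1.5, and USP32 from -1.59 to -1.52. Among named genes, a called value took the opposite sign, or a value was called with the opposite sign, for MRPL19 (-0.21), MRPL30 (-0.24), MRPS27 (-0.25) and MRPS35 (-0.011) as TPM, MRPL42 (0.25), MTERF1 (0.0057) and PPRC1 (0.044) with quantile normalization, and MRPL42 (0.52), MRPS6 (-0.10) and PPRC1 (0.059) after length correction. Values not called on either scale that changed sign were MRPS11 as TPM (-0.14), MRPL35 after length correction (0.08) and with median-ratio scaling (0.05), and MRPS10 (0.08) and MRPL42 (0.03) with median-ratio scaling.

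Same-numbered libraries had deviations that correlated at -0.077, 0.071 and 0.119. Deviations within groups of 3 libraries cannot decide whether same-numbered libraries were prepared together, and the labels do not state it. With the replicate block 70 members were higher and 2 lower (MRPL 43 and 2, MRPS 27 and 0), MRPL19 was not called (adjusted p = 0.0892) and MRPS11 was (adjusted p = 0.0132).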
